A study of Homo sapiens with 8 samples.

Results

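The comparison described here sets H1 cells in which a short hairpin RNA against EXOSC3 had been switched on beside H1 cells in which a non-silencing hairpin had been switched on in the same way. H1 is an established human embryonic stem cell line. Its members are 4 of the 8 libraries of the study, chosen by hairpin and treatment and not by any measured value. They are the doxycycline-treated shEXOSC3 libraries of day 5 and day 7 and the doxycycline-treated shNS libraries of the same days. The other 4 libraries, from the same lines on the same days without doxycycline, served as the background. The untreated cells carry the hairpin construct too, and puromycin was in the medium of every group. Every group was 1 library, only the H1 line was used, and the sources used here do not give whether a line was a pool or a clone. Days 5 and 7 are time points, so the 2 libraries of a line are not replicates, and nothing in the labels says that they came from separate cultures.

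The RNA exosome is a ring of core subunits that threads RNA into the nucleases EXOSC10, DIS3 or DIS3L. In the nucleus it trims the ends of small structured RNAs and removes short-lived transcripts, such as those made upstream of promoters in the direction opposite to the gene. In the cytoplasm it degrades messenger RNA from the 3′ end. EXOSC3 (RRP40) is one of the cap proteins that sit on the ring and contact the incoming RNA. In embryonic stem cells, which keep the ability to form every germ layer, POU5F1, NANOG and SOX2 maintain the undifferentiated state.

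Levels are FPKM, fragments scaled by transcript length and library size, summed over the transcripts of a symbol. The line difference is log2 of (FPKM + 1) in shEXOSC3 over (FPKM + 1) in shNS of the same day and treatment, a scale that understates the difference of low genes. Paired values below are day 5 and then day 7. All 13116 genes with a mean of at least 1 FPKM over the 8 libraries were tested, and 12496 of them lie at loci of at least 300 bp outside the short RNA classes (long loci). FPKM summed to between 680306 and 785419 in the 4 doxycycline libraries, and short RNAs took between 31.88% and 42.96% of it. The 3 most abundant transcripts held 23.85% and 26.67% of the FPKM on day 5 and 6.21% and 6.78% on day 7, so the days differed in composition far more than the lines did. Read counts are not in the tables, so depth is unknown. The median line difference over all genes was -0.0032 and 0.0056; FPKM are scaled to library size and the tables hold 0 spike-in entries, so a shift of total RNA could not be measured. The libraries are bulk RNA, in which fewer cells of a type and less RNA per cell cannot be told apart.

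The stem cell label was checked first. POU5F1 stood at 151 and 154 FPKM in shEXOSC3 and at 162 and 139 in shNS with doxycycline. NANOG stood at 19.4 and 23.0 against 18.8 and 22.1 FPKM, SOX2 at 172 and 175 against 184 and 234, and LIN28A at 449 and 524 against 436 and 587. Each of these markers of undifferentiated stem cells was present in every library.

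EXOSC3 was lower in both induced shEXOSC3 libraries. Its 2 transcripts lie on chromosome 9, 37779711 to 37785089 (hg19). EXOSC3 stood at 11.3 and 12.3 FPKM in doxycycline-treated shEXOSC3, 27.8 and 27.4 in doxycycline-treated shNS, 25.2 and 25.2 in untreated shEXOSC3, and 27.3 and 30.3 in untreated shNS. The induced shEXOSC3 libraries lie below all 6 others, and the untreated shEXOSC3 libraries lie in turn slightly below all 4 shNS libraries. The line difference was -1.22 and -1.09 with doxycycline and -0.11 and -0.25 without. With the untreated difference subtracted, the smaller of both days was -0.84, short of 2-fold. In limma with a term for day, the mean of -1.16 had an adjusted p of 0.539 over all genes and of 0.000385 over long loci (SE 0.116), and the difference from the untreated background was -0.98 (unadjusted p 0.000197 in the fit over all genes).

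The exosome list leaned slightly lower. Of the 14 measured subunits and associated proteins, EXOSC3 included, 10 were below 0 on both days with doxycycline and 2 were above. Of all genes, 30.3% and 30.1% were. Untreated, 4 of the 14 were below and 3 above, against 19.8% and 27.9% of all genes. The median of the 14 with doxycycline was -0.16 and -0.07, and EXOSC3 was the 1 member past 2-fold on both days. EXOSC7, a subunit of the ring, had the next lowest mean: it stood at 61.9 and 55.7 FPKM in shEXOSC3 and 74.8 and 82.8 in shNS with doxycycline, a line difference of -0.27 and -0.56. The nucleases differed little, with EXOSC10 at 0.01 and 0.18, DIS3 at -0.21 and -0.06 and DIS3L at -0.29 and -0.23. EXOSC6, another ring subunit, had the highest mean, at 0.19 and 0.45.

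Among 16 measured cofactors, which bring RNA to the exosome or add the tails it starts from, the median was 0.01 and -0.04. Of the 16, 4 lay above 0 on both days and 5 below, beside 30.1% and 30.3% of all genes. ZFC3H1, part of the complex that delivers polyadenylated nuclear RNA to the exosome, was the 1 cofactor past the fit over long loci. That fit called 1.29% of all long loci higher. ZFC3H1 stood at 8.44 and 16.1 FPKM in shEXOSC3 and 4.98 and 8.55 in shNS with doxycycline, and at 5.35 and 6.83 against 7.10 and 6.64 without. On each day the induced shEXOSC3 library held the highest of the 4 levels. In limma over long loci its mean difference was 0.75 (SE 0.128, adjusted p 0.0124). The helicase MTREX lay at -0.23 and -0.10 and its partner ZCCHC8 at 0.18 and 0.24.

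**Figure D1:**
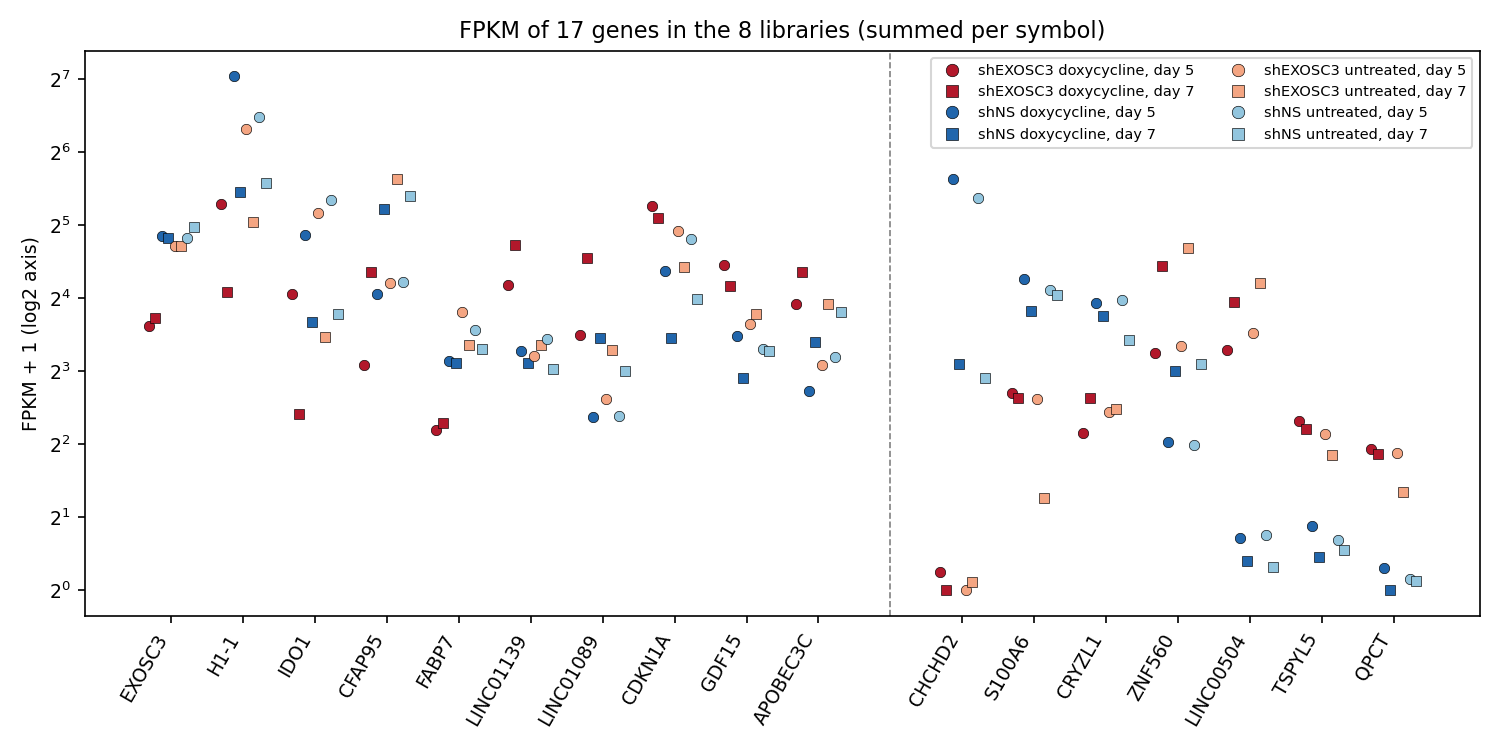
FPKM + 1 on a log2 axis for 17 genes, each with 1 point per library: colour gives line and treatment, circles day 5 and squares day 7. Left of the dashed line the induced shEXOSC3 libraries differ from induced shNS more than the untreated pair does (EXOSC3 at 11.3 and 12.3 FPKM against 27.8 and 27.4). Right of it the lines differ with and without doxycycline (CHCHD2 at 0.187 and 0 FPKM against 48.6 and 7.54 with doxycycline).

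Across all genes, more lay past 2-fold on day 7 than on day 5 on the higher side. On day 5, 99 genes (0.755%) were at least 2-fold higher in shEXOSC3 and 159 (1.21%) at least 2-fold lower. On day 7 there were 262 (2.0%) higher and 146 (1.11%) lower. On both days 19 (0.145%) were higher and 19 (0.145%) lower, and 47 changed sides, 45 of them short RNAs or short loci. At long loci alone, day 5 gave 35 higher (0.28%) and 25 lower genes (0.2%), and day 7 gave 120 (0.96%) and 39 (0.312%). There 12 (0.096%) were higher on both days and 10 (0.08%) lower. The 4 untreated libraries gave 8 (0.064%) and 4 (0.032%) by the same rule.

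Limma over all 13116 genes made 0 calls at an adjusted p of 0.05, and its smallest adjusted p was 0.539. In the same fit 608 genes (4.64%) were higher and 482 (3.67%) lower at an unadjusted p under 0.05. The fit has 1 residual degree of freedom, the change of the line difference between the days, which limma pools with the spread of other genes (prior degrees of freedom 1.8 over all genes and 11.4 over long loci). The p-values over long loci therefore rest mostly on spread borrowed from other genes. Restricted to long loci, a choice that followed a look at the data, limma called 161 genes higher (1.29%) and 62 lower (0.496%), with 1985 (15.9%) at an unadjusted p under 0.05. Calls named below are from that second fit, and none of them was made in the fit over all genes. In the untreated libraries limma made 0 calls among all genes, and 397 (3.03%) had an unadjusted p under 0.05. The interaction of line and doxycycline, which tests whether the induced difference exceeds the untreated one, gave limma calls for 2 genes over all genes, both microRNAs lower in shEXOSC3 (0.0152%), MIR330 and MIR940. Over long loci that interaction gave 0 calls and 1002 genes (8.02%) at an unadjusted p under 0.05. So no protein-coding gene or long RNA named here has an interaction that passed adjustment.

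Across the 12496 long loci the line differences of day 5 and day 7, which share no library, had a Pearson correlation of 0.39 and a Spearman correlation of 0.36 with doxycycline. Without doxycycline the values were 0.13 and -0.01. The points share the genes and the hairpin lines, and no p is given.

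A first set of genes differed between the lines whether or not the hairpin was induced. Of the 12 long-locus genes at least 2-fold higher on both days, 6 (50.0%) met the same rule in the untreated libraries, and of the 10 lower, 4 (40.0%) did. LINC00504, a long noncoding RNA on chromosome 4 (14472090 to 14889793, hg19), stood at 8.76 and 14.4 FPKM in shEXOSC3 and 0.642 and 0.322 in shNS with doxycycline, and at 10.5 and 17.4 against 0.684 and 0.245 without. All 4 shEXOSC3 libraries lie above all 4 shNS libraries. ZNF560, a zinc finger gene, showed the same order at 8.55 and 20.7 against 3.08 and 6.98 FPKM with doxycycline and 9.16 and 24.8 against 2.98 and 7.57 without. ANKRD34C, TSPYL5, QPCT, which makes the N-terminal pyroglutamate of peptide hormones, and LINC01399 also had untreated differences of 0.64 to 3.59.

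CHCHD2, a mitochondrial protein that also acts on nuclear genes, was nearly unseen in the shEXOSC3 line. It was listed at 0.187 and 0 FPKM in induced and 0 and 0.0789 in untreated shEXOSC3, and at 48.6 and 7.54 in induced and 40.2 and 6.48 in untreated shNS. S100A6, a small calcium-binding protein, stood at 5.48 and 5.23 against 18.2 and 13.1 FPKM with doxycycline and 5.16 and 1.41 against 16.2 and 15.5 without. For both genes every shEXOSC3 library lies below every shNS library. CRYZL1, TCEAL5, ZNF680 and URGCP-MRPS24 were lower in untreated shEXOSC3 as well, by -0.53 to -2.10. URGCP-MRPS24 is a readthrough entry, which shares sequence with its component genes, so its level is uncertain.

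Other genes differed more under doxycycline than without. H1-1, a replication-dependent linker histone on chromosome 6 (26017260 to 26018040, hg19), stood at 38.1 and 16 FPKM in shEXOSC3 and 130 and 42.7 in shNS with doxycycline, and at 78.9 and 32.0 against 87.9 and 46.9 without. On each day the induced shEXOSC3 library was the lowest of the 4. Its line difference was -1.75 and -1.36 with doxycycline and -0.15 and -0.54 without, and limma over long loci gave a mean of -1.55 (SE 0.121, adjusted p 0.0001). With the untreated difference subtracted, its smaller day was -0.82, short of 2-fold. RPSA, a protein of the small ribosomal subunit with many processed copies in the genome that may share its reads, lay at -1.21 and -1.31 with doxycycline and at -0.96 and 0.60 without, so on day 5 most of its difference was there untreated.

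LINC01089, a long noncoding RNA on chromosome 12 (122233173 to 122241390, hg19), stood at 10.3 and 22.4 FPKM in shEXOSC3 and 4.20 and 9.94 in shNS with doxycycline, and at 5.17 and 8.81 against 4.24 and 7.01 without. The induced shEXOSC3 library was the highest on each day, and the line difference of 1.12 and 1.10 compares with 0.24 and 0.29 untreated. After subtraction of the untreated difference, the smaller day of LINC01089 was 0.81, short of 2-fold. RHOBTB1 differed by 1.10 and 1.09 with doxycycline and by -0.33 and -0.51 without, although it is listed at 0 in 2 of the 8 libraries. Its smaller difference was 0.29 with a pseudocount of 5 FPKM and 0.0 with its most abundant transcript, so it passed 2-fold under neither. LOC100129148 stood at 4.32 and 5.35 FPKM against 1.47 and 1.75 with doxycycline, and at 0 and 1.64 against 2.29 and 2.04 without, so its untreated difference has the other sign. MIR4458HG, which hosts a microRNA, differed by 1.07 and 1.28 with doxycycline and by 0.44 and 0.58 without. Its smaller day after subtraction was 0.63, also short of 2-fold. DEFB131B and XCL2 also passed the rule on both days, but each is listed at 0 in at least 2 libraries and has a near-identical copy.

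The threshold of 1 on the log2 scale cuts through a continuous range. Just inside it on the higher side are RHOBTB1 and MIR4458HG, and just outside are TCHP (0.98 and 1.04), GDF15 (0.96 and 1.26) and APOBEC3C (1.19 and 0.96). EXOSC3 itself is just inside on the lower side, and LOC441666 (-1.0 and -1.10) and CFAP95 (-0.96 and -0.86) are just outside.

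**Figure D2:**
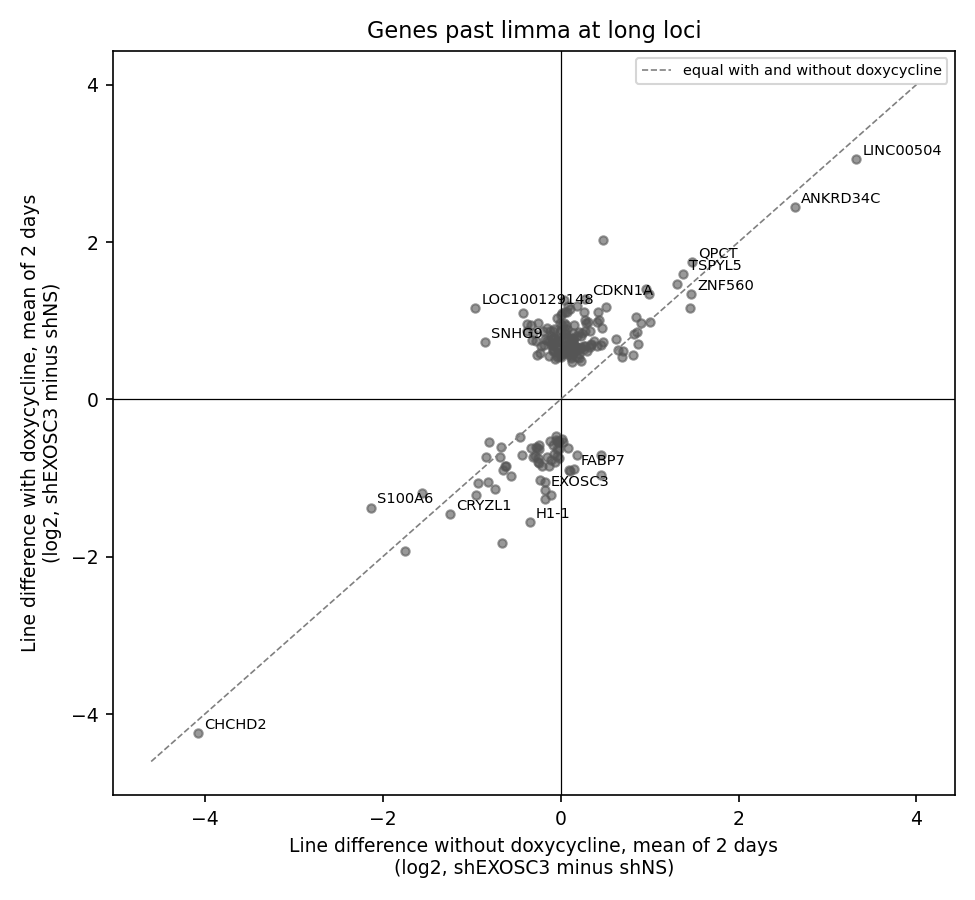
Mean line difference over days 5 and 7 with doxycycline (vertical, log2) against the same without doxycycline (horizontal, log2), for the 221 genes past limma over long loci after Y-linked genes were set aside. Genes near the dashed line, such as LINC00504 and CHCHD2, differ between the lines with or without doxycycline, while most of the points lie near 0 on the horizontal axis.

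Of the 161 genes called higher, 105 (65.2%) had an untreated mean difference under 25% of the induced one, and 26 (16.1%) had one of at least 50%. Of the 62 called lower, 32 (51.6%) and 20 (32.3%) did. These genes were called on the induced difference, which by itself favours a smaller untreated one, so the shares do not test dependence on induction. Among calls not on any list, chosen for mention after their values were seen, APOBEC3C, a cytidine deaminase, stood at 14.1 and 19.5 FPKM against 5.60 and 9.57 with doxycycline and at 7.51 and 14.1 against 8.15 and 13.0 without. IDO1, which breaks down tryptophan, stood at 15.6 and 4.34 FPKM against 28.0 and 11.7 with doxycycline and at 34.9 and 10.1 against 39.4 and 12.7 without. The induced shEXOSC3 library is the highest of its day for APOBEC3C and the lowest for IDO1. APELA, a secreted peptide of human embryonic stem cells, was at 37.4 and 72.0 against 60.1 and 124 FPKM, and TFRC, the transferrin receptor, at 102 and 43.1 against 146 and 72.1. NFU1, which assembles iron-sulfur clusters in mitochondria, stood at 24.1 and 28.4 against 40.7 and 45.9 FPKM, and its untreated difference of 0.21 and 0.17 has the other sign.

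Targets of p53 were higher in induced shEXOSC3 than in induced shNS. All 25 genes of the list were measured, and 23 lay above 0 on both days with doxycycline and 0 below, where 30.1% of all genes lay above. Their median was 0.41 and 0.72, against 0.08 and 0.17 without doxycycline, when 13 lay above 0 on both days and 2 below (27.9% and 19.8% of all genes). Limma over long loci called 12 of the 25 higher and 0 lower, against 1.29% and 0.496% of long loci.

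CDKN1A (p21), an inhibitor of cyclin-dependent kinases on chromosome 6 (36644237 to 36655116, hg19), stood at 37.4 and 33.2 FPKM in shEXOSC3 and 19.6 and 9.93 in shNS with doxycycline, and at 29.3 and 20.4 against 27.0 and 14.8 without. The induced shEXOSC3 library was the highest of each day and induced shNS the lowest, so the gap arises on both sides of the untreated levels. The line difference was 0.89 and 1.65, with a mean of 1.27 in limma over long loci (SE 0.155, adjusted p 0.00186). GDF15, a secreted stress cytokine, stood at 20.9 and 16.9 against 10.2 and 6.49 FPKM with doxycycline and 11.5 and 12.7 against 8.83 and 8.72 without. BTG2, an antiproliferative cofactor of mRNA deadenylation, stood at 8.19 and 10.1 against 3.74 and 3.16 FPKM with doxycycline and 6.45 and 5.02 against 6.46 and 3.63 without. For GDF15 and BTG2 too, the induced shEXOSC3 library was the highest of its day. Induced shNS was the lowest for BTG2 on both days and for GDF15 on day 7, and lay between the untreated levels for GDF15 on day 5. It was also the lowest for BBC3, at 22.4 and 7.75 FPKM. DDB2 on day 5 stood at 32.9 FPKM in induced shEXOSC3, below 43.7 in untreated shEXOSC3 and 38.3 in untreated shNS. Such orders were not counted over the list.

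The other called members fall into the roles of the pathway. MDM2, the ubiquitin ligase that p53 itself induces and that limits it, stood at 97.0 and 247 against 73.0 and 132 FPKM, a difference of 0.41 and 0.89. GADD45A, which acts in DNA repair and growth arrest, differed by 1.00 and 0.68, and PLK3, a stress-responsive kinase, by 0.64 and 0.72. FAS, a death receptor, differed by 0.48 and 1.08 and BBC3 (PUMA), a BH3-only death gene, by 0.46 and 0.71. ZMAT3, an RNA-binding target of p53, differed by 0.83 and 1.20, PHLDA3, which restrains AKT signalling, by 0.53 and 1.17, TP53INP1 by 0.44 and 0.95, and FDXR, a mitochondrial reductase, by 0.50 and 0.67. FAS and ACTA2 overlap in the deposited locus, so their reads may not be separable.

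CCNG1 and TP53I3 were the 2 list members not above 0 on both days, at -0.16 and 0.17 and at -0.08 and 0.79. BAX, a pore-forming death gene, lay at 0.21 and 0.51 and did not pass. Genes outside the list that are also known p53 targets were picked after their values were seen: EDA2R differed by 0.81 and 1.09 with doxycycline and by 0.06 and 0.24 without, and the long noncoding RNA PURPL by 0.67 and 0.86 with doxycycline and by -0.66 and 0.46 without. For 23 of the 25 listed genes the day 7 difference exceeds the day 5 one, and the difference between days was not tested. RNA quality and cell number are not in the tables, and their part in the p53 group was not tested.

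**Figure D3:**
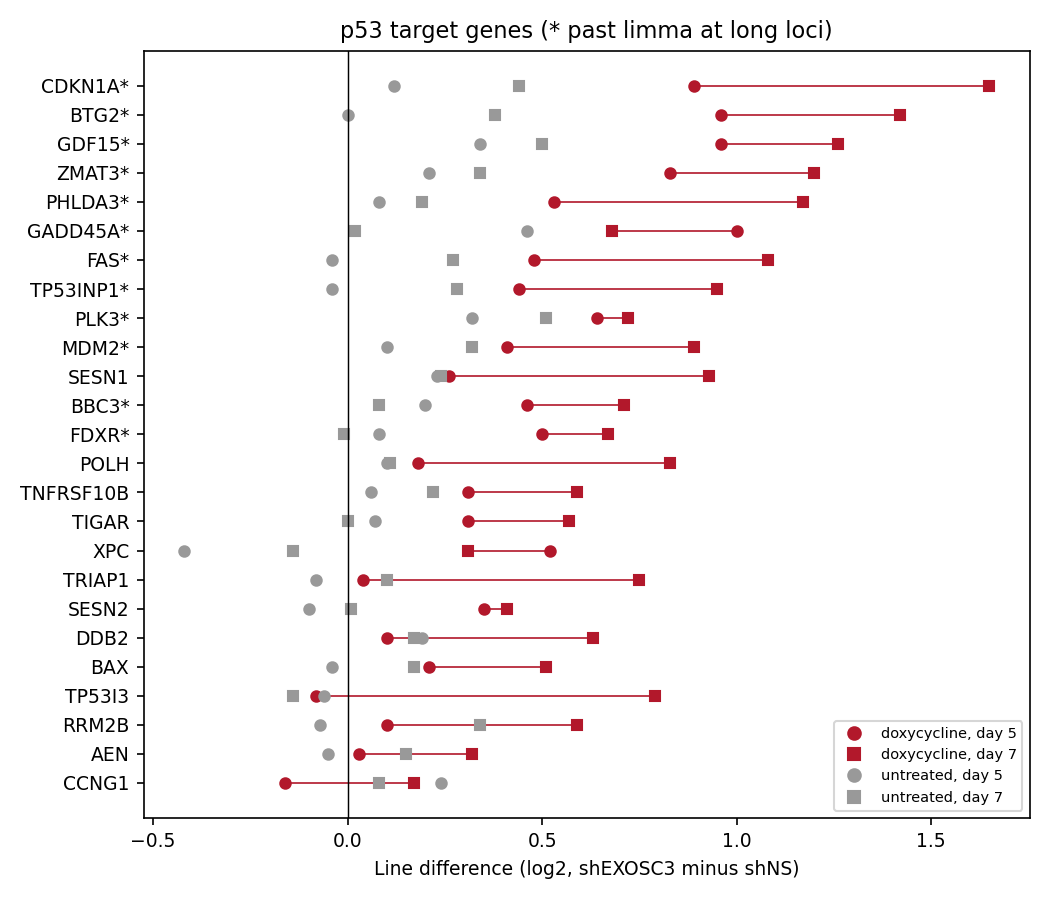
Line difference (log2, shEXOSC3 minus shNS) of the 25 p53 target genes on day 5 (circles) and day 7 (squares), with doxycycline in red, joined by a line, and without in grey. The red points lie above 0 on both days for 23 genes, and an asterisk marks the 12 past limma over long loci.

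Among genes past the minimum mean, several classes of long noncoding RNA lay higher in induced shEXOSC3: divergent transcripts, antisense RNAs and LINC genes. That minimum counts the induced shEXOSC3 libraries, so a low gene passes more easily if it is high there. With no minimum, the medians on days 5 and 7 with doxycycline were 0.05 and 0.20 for divergent transcripts. They were 0.02 and 0.04 for antisense RNAs and 0.00 and 0.00 for LINC genes. Genes whose names end in DT are divergent transcripts, made from the promoter of a coding gene in the other direction. Of 65 measured, 42 lay above 0 on both days with doxycycline and 3 below, beside 30.1% and 30.3% of all genes. Without doxycycline 17 lay above and 17 below, beside 27.9% and 19.8%. Their median was 0.14 and 0.48 with doxycycline and -0.03 and 0.03 without, and limma over long loci called 11 higher and 0 lower, beside 1.29% and 0.496% of long loci. This class was listed after the data were seen. Most of its members had low levels, so the pseudocount holds their differences down.

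Divergent transcripts start in CpG-rich promoter sequence shared with a coding gene. The promoter shown is that of the only matched called member whose window overlaps no exon of a coding gene. The window of PAXIP1-DT runs from 250 bases before to 50 bases after its start, on the plus strand of chr7:155003183-155003482 (GRCh38.p14, RefSeq), and capitals mark its 38 CG dinucleotides.
PAXIP1-DT: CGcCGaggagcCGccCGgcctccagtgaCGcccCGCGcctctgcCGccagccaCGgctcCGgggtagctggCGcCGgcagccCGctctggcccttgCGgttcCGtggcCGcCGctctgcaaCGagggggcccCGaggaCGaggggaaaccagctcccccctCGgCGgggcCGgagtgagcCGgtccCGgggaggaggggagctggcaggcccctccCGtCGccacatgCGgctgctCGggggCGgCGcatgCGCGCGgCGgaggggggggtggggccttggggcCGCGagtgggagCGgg
RefSeq windows were matched for 52 of the 65 divergent transcripts, with a median of 31.5 CG, against 14 over all 27305 promoter windows. The motif TATAAA, searched on both strands, occurred in 3 of the 52 (5.77%) and in 12% of all windows. Of the 11 called members, 9 were matched, and their windows held 28 to 41 CG. The windows of 8 of these overlap exons of a coding gene and are not printed.

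PAXIP1-DT stood at 4.91 and 3.5 FPKM in shEXOSC3 and 2.92 and 1.24 in shNS with doxycycline, and at 3.60 and 1.36 against 2.74 and 1.09 without. The induced shEXOSC3 library was the highest of each day. NIPBL-DT stood at 7.89 and 10 against 4.24 and 4.08 FPKM with doxycycline and 3.37 and 3.16 against 3.54 and 2.87 without, and limma over long loci gave a mean difference of 0.94 (SE 0.141, adjusted p 0.00496). PAPOLA-DT, EIF3J-DT, DPY19L3-DT, BOLA3-DT, SLC2A1-DT, PELP1-DT and CHFR-DT were also called, with differences of 0.41 to 0.80 on day 5 and 0.58 to 1.45 on day 7. CHFR-DT only just reached the minimum, at a mean of 1.02 FPKM over the 8 libraries. With doxycycline it stood at 1.51 and 2.15 against 0.554 and 0.301 FPKM. Its induced shEXOSC3 levels count in that mean, so it is a weak example. CDC37L1-DT was called too, at 0.93 and 1.01, but it differed by 0.83 and 0.98 without doxycycline.

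Antisense RNAs followed the same pattern. Of 228 measured, 138 lay above 0 on both days with doxycycline and 21 below, beside 30.1% and 30.3% of all genes. Without doxycycline 59 and 53 did, beside 27.9% and 19.8%. Their median was 0.16 and 0.34, against -0.05 and 0.07 untreated, and limma over long loci called 20 higher and 1 lower, beside 1.29% and 0.496% of long loci. PCGF3-AS1 stood at 6.49 and 7.54 FPKM against 2.68 and 3.52 with doxycycline and at 2.49 and 4.01 against 3.60 and 4.41 without. ZNF143-AS1 stood at 6.46 and 14.0 against 3.94 and 5.19 FPKM with doxycycline and at 2.70 and 3.86 against 4.43 and 4.30 without. In both cases induced shEXOSC3 was the highest of its day, and the other 3 libraries of the day overlap in range. GNAS-AS1, from the imprinted GNAS locus, differed by 0.67 and 0.47 with doxycycline and by -0.32 and -0.20 without. JAKMIP2-AS1 was the 1 antisense RNA called lower, at -0.74 and -0.47. No source used here states whether counting was stranded, so reads of an antisense RNA and of its partner cannot be told apart.

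Of 87 LINC genes, 53 lay above 0 on both days with doxycycline and 5 below, beside 30.1% and 30.3% of all genes. Without doxycycline 25 lay above and 12 below, beside 27.9% and 19.8%. Their median was 0.15 and 0.39 against 0.00 and 0.13 untreated, and 0.18 and 0.38 with the untreated difference subtracted per gene. Limma over long loci called 6 higher, beside 1.29% of long loci. The called genes include LINC00504, which differed between the lines without doxycycline as well. LINC01139 stood at 17.1 and 25.4 FPKM against 8.69 and 7.66 with doxycycline and at 8.26 and 9.22 against 9.90 and 7.17 without. LINC00938 stood at 15.3 and 14.6 against 8.74 and 5.27 FPKM with doxycycline and at 9.22 and 4.99 against 9.27 and 5.28 without. In each the induced shEXOSC3 library stands apart from 3 close levels of the same day. The 50 LOC entries had a median of 0.18 and 0.26, with 28 above 0 on both days and 10 below, beside 30.1% and 30.3% of all genes. Of them 5 were called higher and 2 lower, beside 1.29% and 0.496% of long loci. With a minimum mean of 5 FPKM the median of the LOC entries was 0.02 and 0.03. Among nuclear and stem cell long noncoding RNAs, 16 measured, 0 were called, and the median was 0.02 and 0.22 against -0.11 and 0.17 untreated. NEAT1, which builds paraspeckles, lay at 0.48 and 0.96 and LNCPRESS2 at 0.22 and 0.85.

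Host genes of small RNAs were mixed. Of 19 measured snoRNA hosts, 5 lay above 0 on both days and 4 below, beside 30.1% and 30.3% of all genes. Their median was -0.09 and 0.13, yet 4 were called higher, beside 1.29% of long loci: SNHG3, SNHG4, SNHG9 and SNHG10. SNHG10 stood at 11.8 and 10.5 FPKM against 8.16 and 4.60 with doxycycline and at 6.26 and 4.42 against 8.09 and 5.76 without. SNHG9 stood at 23.1 and 6.34 against 14.7 and 3.10 FPKM with doxycycline and at 9.30 and 2.92 against 15.6 and 6.89 without. Untreated shEXOSC3 was the lowest of its day for both genes. Induced shEXOSC3 was the highest, except for SNHG9 on day 7, when untreated shNS was higher. Limma over long loci gave the interaction of SNHG9 an unadjusted p of 9e-05 and an adjusted p of 0.135. Of 12 measured microRNA hosts, MIR4458HG and MIR4453HG were called higher, beside 1.29% of long loci, and the median of the class was 0.19 and 0.35.

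**Figure D4:**
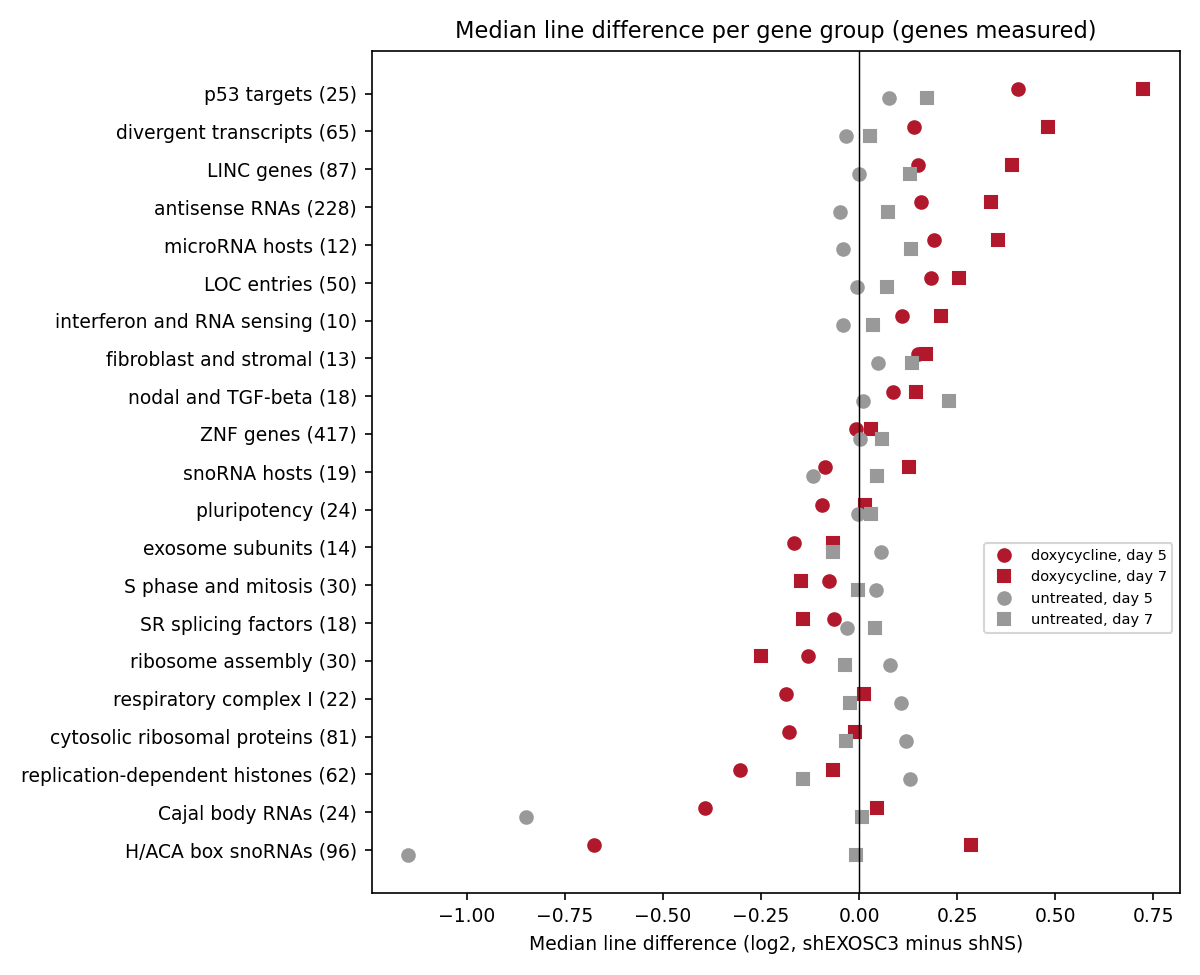
Median line difference (log2, shEXOSC3 minus shNS) of 21 gene groups on day 5 (circles) and day 7 (squares), with doxycycline in red and without in grey, and the number of genes measured in brackets. Among the groups drawn, the p53 targets lie farthest above 0 with doxycycline (0.41 and 0.72), followed on day 7 by the divergent transcripts at 0.48, while the H/ACA box snoRNAs lie farthest below on day 5 (-0.67), where the untreated libraries lie lower still (-1.15).

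Replication-dependent histones, whose mRNAs carry a stem-loop in place of a poly(A) tail and peak in S phase, were lower in induced shEXOSC3, mainly on day 5. Of 62 measured, 40 lay below 0 on both days and 3 above, beside 30.3% and 30.1% of all genes. Their median was -0.30 and -0.07 with doxycycline and 0.13 and -0.14 without, so on day 7 the untreated lines differed by as much. Limma over long loci called 5 lower and 0 higher, beside 0.496% and 1.29% of long loci: H1-1, H2BC26, H2AC1, H3C13 and H4C1. H2BC26 stood at 85.1 and 7.53 FPKM against 130 and 17.2 with doxycycline and at 127 and 13.3 against 135 and 16.9 without. H3C13 and H4C1 were also lower in the untreated shEXOSC3 line, by -0.72 and -0.88 and by -0.70 and -0.20. H2BC26 was several times lower on day 7 than on day 5 in every line and treatment.

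Genes of ribosome assembly had small differences that limma did not call. Of 30 measured, 18 lay below 0 on both days and 1 above, beside 30.3% and 30.1% of all genes. Untreated, 4 lay below and 5 above, beside 19.8% and 27.9%. The median was -0.13 and -0.25 with doxycycline, with 0 calls. NPM1, a nucleolar chaperone, stood at 733 and 556 FPKM against 904 and 975 with doxycycline and at 961 and 972 against 918 and 908 without. FBL, the methyltransferase of box C/D particles, lay at -0.19 and -0.55 and GAR1, of H/ACA particles, at -0.23 and -0.68. The S phase and mitosis list of 30 genes had a median of -0.08 and -0.15. It had 17 genes below 0 on both days and 5 above, beside 30.3% and 30.1% of all genes, and 0 calls. Its members differed in direction: MCM2, of the replicative helicase, lay at -0.16 and -0.56, RRM2, of ribonucleotide reductase, at -0.03 and -0.72, MKI67 at 0.44 and 0.21 and PLK1, a mitotic kinase, at 0.69 and 0.12.

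Pluripotency genes as a list lay near 0. Of 28 listed, 24 were measured, with a median of -0.09 and 0.01. Beside 30.3% and 30.1% of all genes, 8 of the 24 lay below 0 on both days and 5 above, with 0 calls. The lowest of those were DPPA3, at 0.344 and 0.0629 against 1.07 and 0.677 FPKM, DNMT3B, a de novo DNA methyltransferase, at 362 and 258 against 447 and 321 FPKM, and ZFP42 (REX1) at 94.7 and 81.6 against 110 and 103. The difference of DNMT3B was -0.30 and -0.31 with doxycycline and 0.08 and -0.07 without.

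Most genes of the germ layer lists were under 1 FPKM in all 4 induced libraries, though some lists held abundant members. Of 20 mesendoderm and primitive streak genes, 15 were under 1 FPKM in all 4 induced libraries, and the list summed to 30.1 and 25.8 FPKM in shEXOSC3 and 20.5 and 17.7 in shNS. Of the list, 4 genes reached the minimum mean, and limma over long loci called 1 higher, beside 1.29% of long loci. That gene, FOXH1, a partner of SMADs in nodal signalling, stood at 23.2 and 7.54 FPKM against 14.8 and 5.17 with doxycycline. Without doxycycline FOXH1 stood at 15 and 6.18 against 16.2 and 6.12. NODAL stood at 2.01 and 8.22 against 1.68 and 2.37 FPKM with doxycycline and at 1.26 and 4.76 against 1.26 and 3.64 without. Its difference of 1.45 on day 7 beside 0.17 on day 5 did not pass limma. The gap in the list sum lies mostly in FOXH1 and NODAL. Of 18 measured nodal and TGF-beta genes, 10 lay above 0 on both days and 3 below, beside 30.1% and 30.3% of all genes. Untreated, 10 and 2 did so, beside 27.9% and 19.8%. The median of that list was 0.09 and 0.15 with doxycycline and 0.01 and 0.23 without. Limma over long loci called 2 of its genes higher and 0 lower, beside 1.29% and 0.496% of long loci.

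Under 1 FPKM in all 4 induced libraries were also 10 of 18 definitive endoderm, 14 of 21 mesoderm, 15 of 21 neuroectoderm, 14 of 20 trophectoderm and amnion and 5 of 19 fibroblast and stromal markers. With doxycycline, list sums in shEXOSC3 against shNS were 318 and 216 against 326 and 195 FPKM for definitive endoderm. They were 45.3 and 75.7 against 40.5 and 63.4 for mesoderm, and 261 and 136 against 226 and 163 for neuroectoderm. The trophectoderm and amnion list summed to 858 and 513 against 725 and 412. FABP7, a fatty acid binding protein of neural progenitors, was called lower, at 3.60 and 3.88 against 7.77 and 7.67 FPKM with doxycycline and 13.0 and 9.29 against 10.8 and 8.85 without. The fibroblast and stromal list summed to 1140 and 939 FPKM in induced shEXOSC3 and 901 and 694 in induced shNS, a gap that is mostly VIM. The median difference of its 13 measured members was 0.15 and 0.17. Of these, 7 lay above 0 on both days and 1 below, beside 30.1% and 30.3% of all genes. Untreated, 6 and 2 did, beside 27.9% and 19.8%. Limma over long loci called 1 higher, VIM, beside 1.29% of long loci. COL6A2 was among the lowest members, at 0.03 and -0.18, and ACTA2 among the highest, at 0.41 and 0.67. VIM, the intermediate filament vimentin, stood at 524 and 431 against 352 and 244 FPKM with doxycycline and at 88.8 and 87.7 against 79.9 and 82.9 without. All 4 doxycycline libraries lie above all 4 untreated ones for VIM, in both lines. COL1A1, a defining stromal collagen, stood at 9.11 and 16 against 3.87 and 13.6 FPKM with doxycycline and at 4.52 and 20.0 against 5.34 and 16.2 without, so on day 7 both untreated libraries exceed induced shEXOSC3. The part of stromal or differentiating cells in the p53 and noncoding groups was not tested.

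Small structured RNAs did not differ in a stable way. The 96 measured H/ACA box snoRNAs, which guide pseudouridylation and are trimmed by the exosome, had a median of -0.67 and 0.29 with doxycycline and of -1.15 and -0.01 without. On day 5 the line difference of this class was larger in the untreated libraries than in the induced ones. The 24 Cajal body RNAs behaved alike, at -0.39 and 0.05 against -0.85 and 0.01. Medians of the 159 C/D box snoRNAs and the 323 microRNA genes were 0.00 on both days. In these classes 123 and 306 entries lay neither above 0 on both days nor below 0 on both days. Under 1 FPKM in all 4 induced libraries were 12 and 69, so a median of 0.00 does not show stable levels.

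Stress and metabolic lists gave few calls. For scale, 30.1% of all genes lay above 0 on both days with doxycycline and 30.3% below. Of long loci, 1.29% were called higher and 0.496% lower. The 24 measured genes of the ATF4 and amino acid response had a median of 0.05 and 0.00, and ATF5, a transcription factor of that response, was the 1 called, at 9.67 and 11.5 against 5.14 and 7.36 FPKM. Of 10 measured interferon and RNA sensing genes, 8 lay above 0 on both days and 0 were called, and their median was 0.11 and 0.21. EIF2AK2 (PKR), a sensor of double-stranded RNA, lay at 0.12 and 0.27. The 18 measured SR splicing factors and their kinases had a median of -0.06 and -0.14, with 9 below 0 on both days and 1 above. The 81 cytosolic ribosomal protein genes had a median of -0.18 and -0.01 and 2 lower calls, RPSA and RPL22L1. Endoplasmic reticulum stress, cholesterol synthesis, extracellular matrix, respiratory complex I, mitochondrial ribosomal protein, WNT target and nonsense-mediated decay lists had 0 calls, and glycolysis and hypoxia had 1, the neuronal enolase ENO2, at 0.34 and 0.72. Actin, SRF and YAP targets had 1 call, VIM, and the immediate early list had 2, BTG2 and JUND. No HOX gene of 39 reached the minimum, with 0 measured. The 417 ZNF genes had a median of -0.01 and 0.03, with 4 called higher and 3 lower, beside 1.29% and 0.496% of long loci.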

How the data were processed

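Libraries were made from total RNA depleted of ribosomal RNA, per the labels' protocols. The submitters' processing notes name hg19 (GRCh37), TopHat, Cufflinks and CASAVA 1.8; for other versions, the annotation release and the counting strand, the sources used here give nothing. The authors deposited FPKM per RefSeq transcript, per the file headers, in 4 tables of 49235 transcripts, 1 per line and day, so each comparison here crosses 2 separately made tables. Of these, 48147 (97.8%) had a symbol, and 55 symbols with a failed or too deep estimate were left out. FPKM were summed per symbol. Groups came from the sample titles. Line differences were tested with limma 3.58.1 in R 4.3.3 with trend, day as a term and Benjamini-Hochberg adjustment. The fit over all genes was also run on simulated data with 200 changed genes. The simulated noise was normal, with the same spread for genes of similar level. That run does not bear on the fit over long loci. Named genes were the exosome subunits, the 12 highest and lowest on both days, the 6 among those with a mean of at least 10 FPKM, list ends and those with the largest day difference; others are called out as picked later. Members and lists were chosen with earlier results of these data known. Y-linked genes and some others are not reported here. Alternatives were other pseudocounts and minimums, library scaling, 1 transcript per gene, subtraction of the untreated difference, and long loci only.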

Additional observations from a re-analysis of the deposited data

Results flagged for a closer look

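In the groups here, some results took opposite directions on the 2 days or in the 2 treatments. None of these differences was tested except where stated. The neuroectoderm median with doxycycline was 0.20 on day 5 and -0.24 on day 7, with OTX2 at 0.24 and -0.58 and NES at 0.31 and -0.33. The median of WNT targets was 0.18 on day 5 and -0.29 on day 7, with LEF1 at 0.16 and -0.80. The H/ACA box snoRNA median was -0.67 on day 5 and 0.29 on day 7. DPEP3, a dipeptidase gene, differed by 1.45 on day 5 and -1.63 on day 7, and it is at or near 0 FPKM in 1 induced library of each line. SNHG9 differed by 0.62 and 0.84 with doxycycline and by -0.69 and -1.01 without; its limma interaction over long loci had an adjusted p of 0.135.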

How the results depend on the processing

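The lines are paired by day, which is a term of the limma fit; without that term limma called 0 genes higher and 0 lower. Genes at least 2-fold higher on day 5 numbered 167, 52, 232, 35 and 198 with a pseudocount of 0.1 FPKM, one of 5 FPKM, the most abundant transcript, long loci only and the untreated difference subtracted. On day 7 the higher count was 426, 147, 530 and 120 under the first 4 of these and 170 with a minimum mean of 5 FPKM. The lower count was 300 on day 5 and 455 on day 7 with the most abundant transcript, 25 and 39 at long loci, and 230 on day 7 after subtraction, so the split of higher against lower became 198 to 121 on day 5 and 289 to 230 on day 7. On both days, higher and lower counts were 39 and 29 with a pseudocount of 0.1, 5 and 10 with 5, 38 and 29 with the most abundant transcript, 12 and 10 at long loci, and 86 and 57 at 1.5-fold; the higher count was 11 with the stricter minimum and 36 after subtraction. Limma called 161 higher and 62 lower at long loci and 2 lower after subtraction, and 0 under each other alternative run. Among medians of at least 0.1 in size, the sign changed in 7 cases: after subtraction mesoderm on day 7 (-0.072), nodal and TGF-beta on day 7 (-0.0638), H/ACA box snoRNAs on day 5 (0.3351) and Cajal body RNAs on day 5 (0.0689), and with the most abundant transcript neuroectoderm on day 7 (0.0033), nonsense-mediated decay on day 5 (-0.0116) and microRNA hosts on day 5 (-0.0262). After subtraction LINC00504 came to -0.20 and ZNF560 to -0.13 by the smaller of both days. The cause of these changes was not tested. Of the list medians, 478 moved by at most 0.1 on the log2 scale, and 63 moved further, of which 4 medians under 0.1 in size changed sign. Of the results for 21 named genes, 97 kept their side of the threshold, 36 did not and 2 changed sign. With a pseudocount of 5 FPKM, 18 of the 21 genes no longer passed and 3 did. After subtraction of the untreated difference, 15 no longer passed, 2 changed sign and 4 still passed. Library scaling moved none of the 80 medians by more than 0.1. Leaving out a library was not run, since it leaves 1 day and no residual degrees of freedom. Limits are 1 library per group, 1 hairpin per arm, tables made separately, unknown depth, and differences of low genes held down by the pseudocount.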

Other observations

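Of the amino acid response, 3 genes picked after their values were seen stood higher with doxycycline in both lines. ATF5 stood at 9.67 and 11.5 FPKM in induced shEXOSC3 and 5.14 and 7.36 in induced shNS, against 1.91 and 3.09 and 2.18 and 3.19 untreated. TRIB3 stood at 22.2 and 9.86 against 20.8 and 7.79 FPKM with doxycycline, and at 7.05 and 3.59 against 7.47 and 2.93 without. ASNS, which makes asparagine, stood at 169 and 173 against 173 and 211 FPKM with doxycycline, and at 101 and 102 against 106 and 114 without. For these 3 genes every doxycycline library lies above every untreated library of the same day.

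EGR1, EGR2 and EGR3, immediate early transcription factors, lay lower in induced shEXOSC3 on day 7, with values of -1.01, -1.23 and -1.16, and at -0.15, -0.14 and 0.02 on day 5. EGR1 stood at 14.9 FPKM in shEXOSC3 and 31.1 in shNS with doxycycline on day 7, and at 19.1 in both untreated libraries. None of the 3 genes passed limma over long loci.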
